A study of Arabidopsis thaliana with 24 samples.

Results

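RNA levels in asf1ab seedlings were set directly against those in hira seedlings, both kept in white light, with no wild-type library in the contrast. The 6 libraries were taken by genotype and light label, 3 asf1ab and 3 hira, out of 24 in the series, and all loci of the deposited table were used. RNA was sequenced from whole Arabidopsis thaliana seedlings at 6 days of age. The asf1ab group carries mutations of ASF1A and ASF1B, the hira group a mutation of HIRA, and the labels name no allele or line. Wild type (WT, Col-0) in white light and the same mutants after 1 hr of shade (red to far-red ratio 0.4), 3 libraries each, are quoted only as levels beside the 6 libraries or as a second measure of the same genotypes. The comparison asks how transcripts in seedlings with mutated ASF1 genes differ from those in seedlings with mutated HIRA.

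ASF1 is a small histone chaperone that binds newly made histone H3 and H4 as a dimer and passes them on. One receiver is CAF-1, which places H3.1 on DNA behind the replication fork. The other is the HIRA complex, which places the variant H3.3 outside replication, mostly at transcribed genes. ASF1 thus stands upstream of both routes, and HIRA belongs to the replication-independent one.

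The values are the authors' FPKM, a read level corrected for transcript length and library depth. They sum to between 829364 and 893997 per library, and between 18458 and 18741 loci reach 1 FPKM. Depth, read from the spacing of low values, lies between 13500000 and 16300000 reads per library. Ribosomal RNA took 1.86, 1.36 and 1.25% of summed FPKM in asf1ab and 8.32, 7.27 and 3.22% in hira. All hira libraries lay above all asf1ab libraries, 6.27 ± 2.70% against 1.49 ± 0.326% (mean ± SD, n = 3; exact two-sided permutation p = 0.1, the smallest that 3 against 3 allows). Plastid transcripts took 1.47 ± 0.727% in asf1ab and 2.3 ± 0.802% in hira (exact permutation p = 0.2), and mitochondrial transcripts 0.0211 ± 0.00372% and 0.0443 ± 0.00682% (exact permutation p = 0.1). The part of these shares in the results below was not tested. Replicate 3 of hira stands apart in heat shock, jasmonate and sulfur genes, with values given where they touch a result. All tests were made with limma on log2(scaled FPKM + 1), a scale that understates changes of weakly expressed loci. Calls were made at a Benjamini-Hochberg adjusted p below 0.05 over the 18835 loci with a mean FPKM of at least 1. The labels do not say whether libraries came from separate cultures, so p-values measure only the spread between these samples. In whole seedlings, fewer cells of a type and less RNA per cell cannot be told apart.

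Both sets of labels were first checked on the mutated genes. ASF1B read 2.09, 1.74 and 1.77 FPKM in asf1ab, 9.67, 8.70 and 9.76 FPKM in hira, and 10.6, 9.76 and 8.11 FPKM in WT. The asf1ab libraries lie well below the rest, and ASF1B was lower than in hira by a log2 difference of -1.89 ± 0.113 (SE, adjusted p = 0.00115, limma), with -1.87 in shade. ASF1A read 8.80, 9.95 and 9.92 FPKM in asf1ab against 11.2, 12.4 and 14.1 FPKM in hira. These groups do not overlap, but the difference of -0.40 ± 0.102 was not called (adjusted p = 0.143), and in shade the sign was the other way, at 0.39. HIRA read 5.78, 6.37 and 5.77 FPKM in asf1ab, 3.68, 3.68 and 4.38 FPKM in hira and 4.6, 5.04 and 4.99 FPKM in WT. The hira libraries are the lowest, at a difference of 0.47 ± 0.105 that was not called (adjusted p = 0.105, limma). In shade the HIRA difference was 0.25 (adjusted p = 0.18, limma). Shaded hira read 4.81, 4.76 and 4.13 FPKM and overlapped shaded WT at 4.59, 5.2 and 4.72 FPKM. Transcript level alone thus marks the ASF1B lesion clearly, but not those of ASF1A and HIRA, whose differences were small and not called. Which part of each transcript a lesion removes is not given in the labels.

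Of 18835 loci, 277 differed between the mutants, 1.47% of those tested. Transcripts were higher in asf1ab at 98 loci (0.52%) and lower at 179 (0.95%), and the libraries of the groups did not overlap at any of the 277. As background, all 3 asf1ab libraries lay above all 3 hira libraries at 2227 loci (11.8%), and the reverse held at 1504 (7.99%). At least 1 log2 unit separated the mutants at 71 higher and 116 lower loci. Without adjustment, 2510 loci (13.3%) had a p below 0.05, 1125 higher (5.97%) and 1385 lower (7.35%), and the unadjusted counts of gene lists given below are to be read against these shares. The higher loci had a median log2 difference of 1.45, the lower ones of -1.21 and all loci tested of -0.00108. Set beside WT, the higher loci had a WT mean nearer to hira at 72 and nearer to asf1ab at 26. Among the lower loci the WT mean was nearer to hira at 102 and nearer to asf1ab at 77. The number of calls depended on single libraries: it was 66 without hira replicate 2, 87 without hira replicate 1, 91 without asf1ab replicate 2, 120 without asf1ab replicate 1, 146 without asf1ab replicate 3 and 292 without hira replicate 3. None of the 277 loci changed direction in any of these fits. That was largely fixed in advance, because the libraries of the groups did not overlap at any of them.

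**Figure D1:**
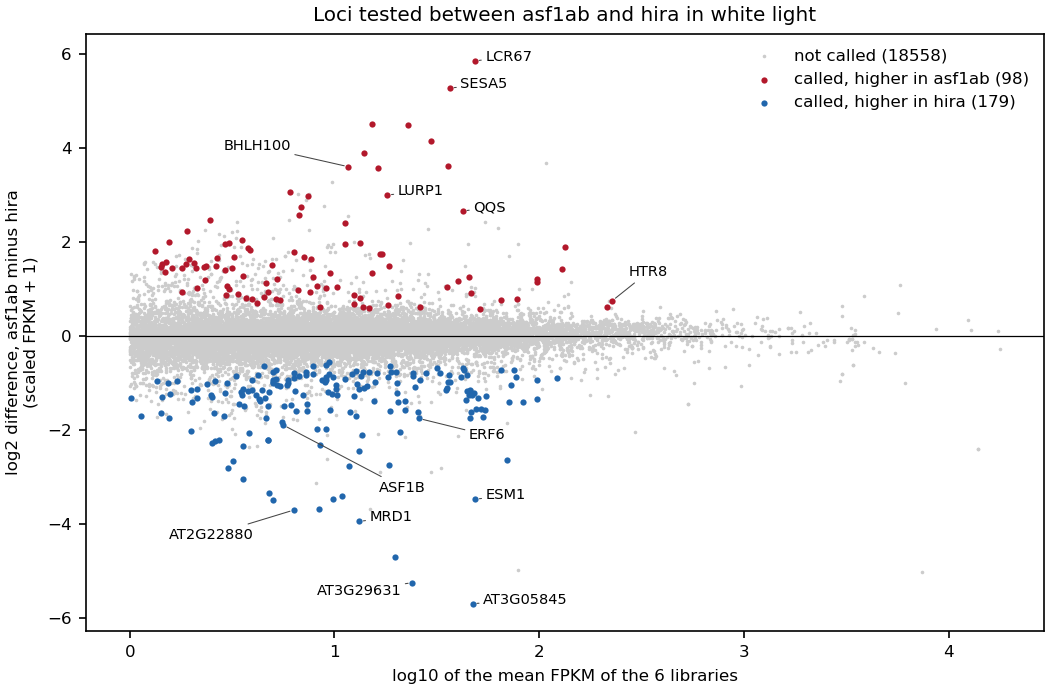
Log2 difference between asf1ab and hira in white light (vertical axis) against the log10 of the mean FPKM of the 6 libraries (horizontal axis), 1 point per locus tested. The 98 loci higher in asf1ab lie above 0 and the 179 lower ones below it, with seed storage genes at the top and AT3G05845 and AT3G29631 at the bottom, among 18558 loci not called.

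Seed storage protein genes made up 6 of the 7 largest differences in favour of asf1ab, after the defensin gene LCR67. Embryos fill with 12S cruciferins and 2S albumins late in seed development, and seedlings normally switch these genes off and use up the proteins at germination. Of 20 genes listed as seed storage and late seed genes, 16 were tested. Of these, 6 were higher in asf1ab, against 0.52% of all loci, and none was lower. All 16 differences were positive, with a median of 1.84 against -0.00108 for all loci. The asf1ab libraries lay above the hira libraries in 11, against 11.8% of all loci. The list was put together with earlier results of these data in view, so its direction is not independent evidence. Leaving out a library gave between 0 and 9 called members, with 0 without hira replicate 2, 2 without hira replicate 1, 3 without asf1ab replicate 3, 4 without asf1ab replicate 2 and 9 without asf1ab replicate 1. In the fit that left out hira replicates 1 and 2 together, the libraries with the highest ribosomal share, 9 members were called.

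The albumin gene SESA5 read 21.4, 131 and 65.9 FPKM in asf1ab, 0.63, 0.59 and 0.21 FPKM in hira, and 0, 0.06 and 0.07 FPKM in WT. Every asf1ab library is far above every other, with a spread of several fold among them, and the log2 difference was 5.28 ± 0.574 (adjusted p = 0.0102, limma). SESA1 read 11.7, 52.3 and 27.0 FPKM in asf1ab, 0.18, 0.28 and 0 FPKM in hira, and was listed at 0 in all WT libraries, for a difference of 4.51 ± 0.463 (adjusted p = 0.00825). Its neighbours on chromosome 4, SESA2 and SESA3, were also higher, by 4.16 ± 0.581 and 3.90 ± 0.5 (adjusted p = 0.0254 and 0.0178). The 3 genes stand side by side in the TAIR10.1 annotation and are close copies, so counting could share reads among them. SESA4, also on chromosome 4, read 1.27, 9.10 and 5.28 FPKM against 0.18, 0.59 and 0.27 FPKM and was not called (1.95 ± 0.504, adjusted p = 0.149).

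Cruciferins showed the same order of libraries. CRC, the gene AT4G28520, read 17.8, 65.2 and 51.4 FPKM in asf1ab, 1.1, 0.79 and 0.37 FPKM in hira and 0 in each WT library (4.5 ± 0.449, adjusted p = 0.00739, limma). CRA1 read 24.6, 89.0 and 90.09 FPKM in asf1ab and 5.09, 5.16 and 1.73 FPKM in hira, with 0.06, 0.11 and 0.08 FPKM in WT (3.62 ± 0.555, adjusted p = 0.0355). For both cruciferins asf1ab replicate 1 is the lowest of its group and still above all hira libraries, and hira itself lies above WT. Genes for oil body and late embryo proteins differed less: the oleosin gene OLEO1 by 2.1 ± 0.516 (adjusted p = 0.130) and the LEA gene EM1 by 1.73 ± 0.557 (adjusted p = 0.238), neither called. ABI5 and ABI3, transcription factors that drive the late seed programme, differed by 0.75 (adjusted p = 0.0543) and 0.35 (adjusted p = 0.411). M17, a late embryogenesis abundant gene outside the list, read 11.97, 27.9 and 53.8 FPKM against 1.61, 1.92 and 0.45 FPKM and was called higher (3.58 ± 0.523, adjusted p = 0.0306), a call lost without asf1ab replicate 2, hira replicate 1 or hira replicate 2.

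The summed level of 11 embryo and seed markers, most of them members of the same list, was 99.5, 406 and 326 FPKM in asf1ab, 24.3, 27.3 and 13.4 FPKM in hira and 4.84, 4.81 and 1.27 FPKM in WT. Of these markers 10 were tested and 5 called higher, against 0.52% of all loci. Markers of other cell types differed by smaller amounts. Among root markers 0 of 7 tested were called by limma (3 at an unadjusted p below 0.05, all lower, against 7.35% of all loci). Their sums were 52.8, 50.01 and 47.9 FPKM in asf1ab, 54.4, 55.3 and 61.4 FPKM in hira and 72.4, 81.01 and 77.05 FPKM in WT. Among shoot meristem markers 0 of 5 were called (3 unadjusted, all lower). Their sums ran from 62.9 to 66.2 FPKM in asf1ab, from 66.1 to 73.9 FPKM in hira and from 79.1 to 101.5 FPKM in WT. None of 8 stomatal and 4 epidermal markers was called, with 0 at an unadjusted p below 0.05. In shade, in a fit of the 12 mutant libraries, 2 root, 2 shoot meristem and 1 stomatal marker were called lower. White light in that fit gave 1 root and 1 shoot meristem marker, both lower. The part of a different make-up of the tissue in the seed gene result was not tested.

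**Figure D2:**
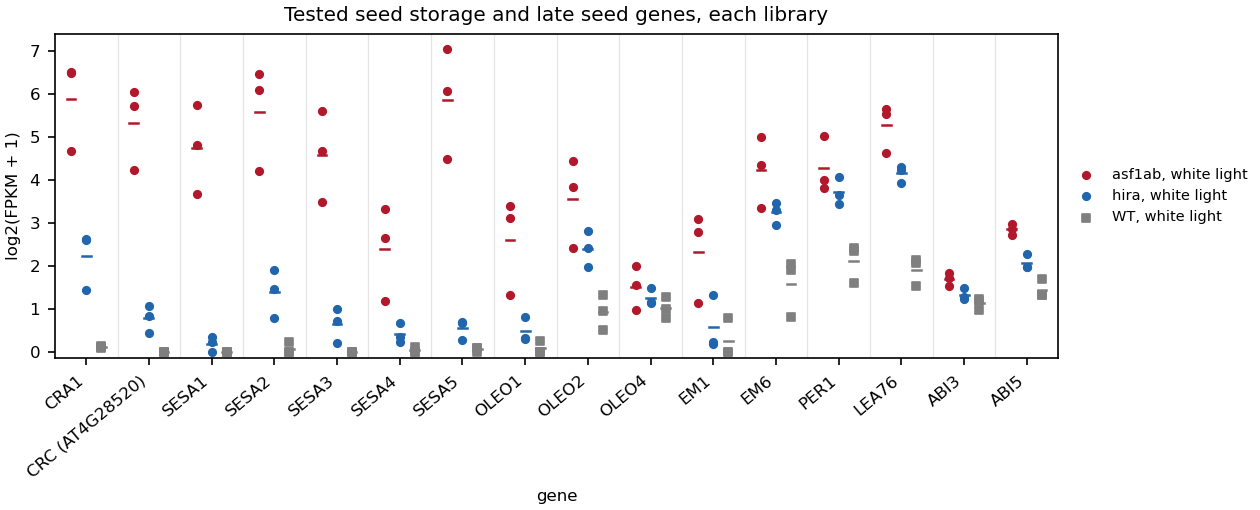
Values of log2(FPKM + 1) (vertical axis) in each white-light library of asf1ab, hira and WT for the 16 tested seed storage and late seed genes (horizontal axis); points are libraries and dashes group means. Points of asf1ab stand above those of hira without overlap in 11 genes, widest for SESA5 at 21.4 to 131 FPKM against 0.21 to 0.63 FPKM, and close together for PER1 and OLEO4.

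The largest difference of all was at LCR67, which encodes a plant defensin, a small cysteine-rich peptide. It read 34.0, 197 and 59.6 FPKM in asf1ab, 0, 0 and 1.04 FPKM in hira and 1.1, 0.19 and 2.40 FPKM in WT. Thus asf1ab stands apart from both other genotypes, at 5.86 ± 0.613 above hira (adjusted p = 0.0088, limma) and 5.40 in shade. QQS, an Arabidopsis-specific gene known to vary in silencing between lines and to affect the partition of carbon between starch and protein, read 72.7, 83.1 and 66.8 FPKM in asf1ab, 8.42, 13.3 and 10.2 FPKM in hira and 14.4, 16.6 and 12.5 FPKM in WT. Its libraries are tight within each group, with a difference of 2.66 ± 0.164 (adjusted p = 0.00115) and 3.03 in shade, and it kept the call without each library in turn. LCR67 lost the call without hira replicate 1 (adjusted p = 0.0504) or hira replicate 2 (0.0627).

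A further set of called genes is known from defence and metal responses. LURP1, induced during infection by an oomycete, read 44.6, 22.4 and 32.6 FPKM in asf1ab and 2.14, 4.16 and 2.93 FPKM in hira (3.0 ± 0.28, adjusted p = 0.00624, limma). WT read 0.16, 0.90 and 27.8 FPKM, so that WT replicate 3 alone reaches the level of asf1ab. CYP71A12, a P450 of camalexin synthesis, read 22.6, 9.95 and 5.91 FPKM in asf1ab and 0.16, 1.45 and 0.91 FPKM in hira (2.76 ± 0.474, adjusted p = 0.0474), and WT replicate 3 read 33.0 FPKM against 0.03 and 0.58 FPKM in the others. The neighbours PCR1 and PCR2, named for cadmium resistance, were both higher: PCR1 at 21.0, 8.30 and 5.95 FPKM against 0.06, 0.86 and 0.18 FPKM (3.06 ± 0.442, adjusted p = 0.0290) and PCR2 by 1.06 ± 0.158 (adjusted p = 0.0328). BHLH100 and bHLH39, transcription factors of the iron deficiency response, were higher by 3.61 ± 0.587 (adjusted p = 0.0421) and 2.99 ± 0.511 (adjusted p = 0.0474). For BHLH100 the libraries read 33.7, 28.8 and 5.94 FPKM in asf1ab and 0.93, 0.56 and 0.22 FPKM in hira, so asf1ab replicate 3 lies far below its group. CYP71A12, PCR1, BHLH100 and bHLH39 lost the call without any of at least 4 of the 6 libraries, those of asf1ab replicate 2 and of each hira library among them, with adjusted p up to 0.162. LURP1 kept it without each one.

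In the list of salicylic acid and immunity genes, 14 of 19 were tested, with a median of 0.31. Called were 1 higher and 1 lower, against 0.52% and 0.95% of all loci. BGL2, a beta-1,3-glucanase that serves as a marker of the salicylic acid response, read 3.34, 2.16 and 2.23 FPKM in asf1ab and 0.08, 0.13 and 0.61 FPKM in hira (1.48 ± 0.241, adjusted p = 0.0421, limma). CBP60G, an activator of salicylic acid synthesis, went the other way, at 3.48, 3.32 and 4.85 FPKM against 8.33, 8.37 and 7.18 FPKM (-0.93 ± 0.154, adjusted p = 0.0447). PR1, the best known marker of this pathway, read 7.99, 6.06 and 1.64 FPKM against 0, 0.65 and 0.06 FPKM and was not called (2.17 ± 0.466, adjusted p = 0.0914). BGL2 lost the call without any 1 of 5 libraries, all but hira replicate 3, and CBP60G without any 1 of 4, all but asf1ab replicate 3 and hira replicate 3.

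Lower in asf1ab, and high in hira, was a small set of poorly described loci with near absence in asf1ab. On chromosome 3, the long non-coding RNA AT3G05845 read 1.03, 1.18 and 0.43 FPKM in asf1ab, 98.4, 109 and 74.7 FPKM in hira and 1.61, 2 and 1.75 FPKM in WT. It is high in the hira libraries alone, with a log2 difference of -5.70 ± 0.211 (adjusted p = 0.000314, limma) and -5.37 in shade. AT3G29631, annotated as a nuclease on the opposite strand over the same stretch, read 0, 0.26 and 0.67 FPKM in asf1ab and 42.3, 61.1 and 39.5 FPKM in hira (-5.25 ± 0.236, adjusted p = 0.000314). Whether the counting used strand is not stated, so reads of these overlapping loci cannot be told apart. The next expressed locus, AT3G29639, overlaps neither and read 1.06, 0.19 and 0.51 FPKM in asf1ab, 37.9, 41.1 and 37.4 FPKM in hira and 0.28, 0.56 and 1.01 FPKM in WT (-4.71 ± 0.199, adjusted p = 0.000314; -4.72 in shade). All 3 kept the call without each library in turn.

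The same pattern, high in hira and near 0 in both asf1ab and WT, held at MRD1, AT1G36675 and AT1G06993. At AT1G75945, AT5G35480 and MRU1 levels were also highest in hira, but asf1ab was not near 0. MRD1, named for its lower transcript in the methionine-overaccumulating mutant mto1, read 0.75, 0.37 and 1.27 FPKM in asf1ab, 22.7, 25.8 and 28.3 FPKM in hira and 0.43, 0.04 and 0 FPKM in WT (-3.95 ± 0.190, adjusted p = 0.00043, limma; -4.48 in shade). MRD1 overlaps loci on the opposite strand. The glycine-rich protein gene AT1G36675 read 0.63, 0.33 and 0.15 FPKM in asf1ab, 16.4, 20.0 and 12.9 FPKM in hira and at most 0.20 FPKM in WT, for a difference of -3.69 ± 0.207 (adjusted p = 0.000931). AT1G06993, a non-coding RNA next to it in expressed gene order, followed at -2.66 ± 0.250 (adjusted p = 0.00644), a call lost without hira replicate 2 (adjusted p = 0.0526). AT1G75945 read 5.1, 4.5 and 2.93 FPKM in asf1ab, 26.0, 29.6 and 42.1 FPKM in hira and 0.78, 0.34 and 0.19 FPKM in WT (-2.73 ± 0.215, adjusted p = 0.00296), so here asf1ab lies between WT and hira. The neighbours AT5G35480 and MRU1 on chromosome 5 did the same: AT5G35480 read 18.5, 32.5 and 9.67 FPKM in asf1ab, 110.3, 160.3 and 84.2 FPKM in hira and 4.92, 8.58 and 5.61 FPKM in WT (-2.64 ± 0.422, adjusted p = 0.0396). MRU1 differed by -2.44 ± 0.347 (adjusted p = 0.0273), and both MRU1 and AT5G35480 lost the call without asf1ab replicate 1, asf1ab replicate 3, hira replicate 1 or hira replicate 2, and MRU1 also without asf1ab replicate 2.

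Some loci were listed at 0 in every library of 1 mutant, for which no fold change is given. AT2G11405 was at 0 in asf1ab and read 8.03, 5.93 and 7.45 FPKM in hira (adjusted p = 0.000728, limma), and again 0 in shaded asf1ab against 10.7, 7.01 and 13.6 FPKM in shaded hira. The assembled locus MSTRG.16788 was at 0 in asf1ab and read 11.2, 9.04 and 9.95 FPKM in hira (adjusted p = 0.000314). Both are high in hira in either light. AT5G19595, which overlaps AT5G19590 on the opposite strand, was at 0 in asf1ab and read 7.17, 6.69 and 4.27 FPKM in hira (adjusted p = 0.00295), and was at 0 in all 6 shaded mutant libraries. U1.2 was at 0 in asf1ab and read 4.92, 12.01 and 11.8 FPKM in hira (adjusted p = 0.00512), but the reverse held in shade, with 6.77, 13.1 and 0 FPKM in asf1ab and 0 in hira. In the other direction HSD1 (AT5G50700), a steroid dehydrogenase of seed oil bodies, read 2.68, 4.77 and 7.36 FPKM in asf1ab and 0 in hira and WT (adjusted p = 0.0147), while AT3G09905 at 31.99, 1.23 and 6.74 FPKM against 0 was not called (adjusted p = 0.184). HSD1 lost the call without asf1ab replicate 2, hira replicate 1 or hira replicate 2, and has a near-identical copy, AT5G50600, with which reads could be shared. A listed 0 need not mean absence: LHCB1.5, a major light-harvesting gene, is listed at 11300.3, 5280.2 and 0.14 FPKM in asf1ab and at 3036, 0 and 3575 FPKM in hira.

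**Figure D3:**
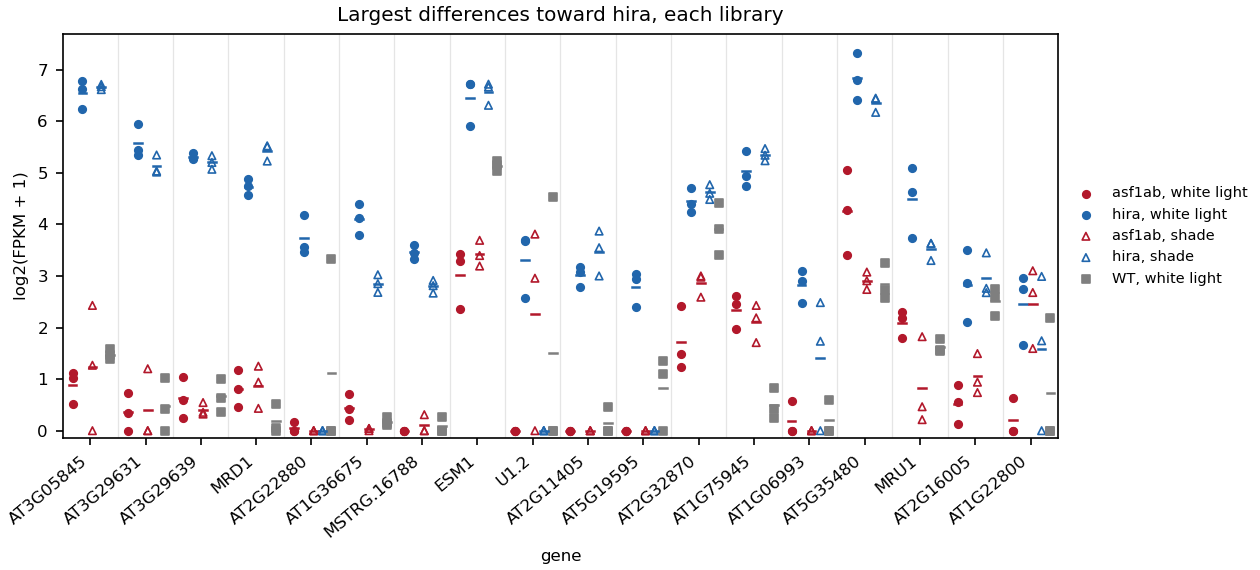
Values of log2(FPKM + 1) (vertical axis) in each asf1ab and hira library, in white light and in shade, and in white-light WT, for the 14 largest falls and the 4 loci listed at 0 in asf1ab (horizontal axis); points are libraries and dashes group means. In AT3G05845, AT3G29631, AT3G29639 and MRD1 the hira points of both lights lie at 22.7 FPKM or above with those of asf1ab and WT at 4.39 FPKM or below, while AT2G22880 and AT5G19595 are at 0 in shade.

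Assembled loci carry no annotated gene name. Of 133 tested, 11 were called (8.27%), 2 higher and 9 lower in asf1ab, against 1.41% of 17825 protein-coding and 1.83% of 545 long non-coding loci. Of 103 plastid, mitochondrial and ribosomal RNA loci tested, 0 were called. Called loci were spread over the 5 chromosomes, with 1.26, 1.80, 1.48, 1.32 and 1.42% of tested loci called on chromosomes 1 to 5. A total of 16 pairs of neighbours in expressed gene order were both called, 14 of them in the same direction. Some of these are not separate measures: the identical AT14A rows, the close copies SESA1, SESA2 and SESA3, and the overlapping AT3G29631 and AT3G05845. No background share of such pairs was computed, so the count does not show clustering. Within 100 tested loci on each side, 11 of 200 were called around HIRA (5.50%, 9 lower and 2 higher), 6 around ASF1A (3%) and 5 around ASF1B (2.50%), against 1.43% of all nuclear loci. Sequence carried along with a mutated gene could not be told apart here from an effect of the mutation.

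ESM1 stood apart from this set because WT expresses it. ESM1, the epithiospecifier modifier that steers glucosinolate breakdown towards isothiocyanates, read 9.72, 8.80 and 4.17 FPKM in asf1ab, 105, 105 and 59.3 FPKM in hira and 34.4, 36.5 and 31.9 FPKM in WT. The mutants lie on opposite sides of WT, at -3.48 ± 0.344 (adjusted p = 0.00736, limma; -3.09 in shade). ESM1 lost the call without hira replicate 2 (adjusted p = 0.0531). AT2G32870, a TRAF-like gene, read 1.82, 1.36 and 4.37 FPKM in asf1ab, 25.03, 20.21 and 17.9 FPKM in hira and 20.3, 14.1 and 9.67 FPKM in WT (-2.77 ± 0.311, adjusted p = 0.0106), and its neighbour AT2G32880 was lower by -1.24 ± 0.210 (adjusted p = 0.0468). Here hira resembles WT, and AT2G32870 lost the call without asf1ab replicate 1, hira replicate 1 or hira replicate 2. The identical rows of AT3G28290 and AT3G28300, a pair of near-identical AT14A genes whose reads cannot be separated, read 1.12, 0.99 and 1.08 FPKM in asf1ab, 8.15, 9.53 and 7.41 FPKM in hira and 8.98, 8.61 and 10.9 FPKM in WT (-2.21 ± 0.135, adjusted p = 0.00115).

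Glucosinolate synthesis genes were measured because ESM1 acts on their products, a class of sulfur-rich defence compounds of this plant family. Of 20 genes of the aliphatic branch, 18 were tested and 0 were called by limma, with 13 at an unadjusted p below 0.05, all lower in asf1ab, against 7.35% of all loci. The differences were negative in 17 of 18, and the median was -0.63 against -0.00108 for all loci. All hira libraries lay above all asf1ab libraries in 11 of 18, against 7.99% of all loci. MYB29, a regulator of the branch, read 4.87, 7.08 and 3.82 FPKM in asf1ab and 13.4, 12.8 and 9.96 FPKM in hira (-1.13 ± 0.210, adjusted p = 0.0597). BCAT4, the first enzyme of methionine chain elongation, read 22.5, 31.6 and 19.0 FPKM against 54.9, 39.4 and 48.8 FPKM (-1.0 ± 0.203, adjusted p = 0.0745). In shade, tested in a fit of the 12 mutant libraries, the median of the list was -0.55 and 3 members were called lower. White light in that fit also gave 3. Among sulfur assimilation and starvation genes, 0 of 16 tested were called (5 unadjusted, all lower), with a median of -0.41. LSU1, a sulfur starvation marker, differed by -1.0 ± 0.197 (adjusted p = 0.0695). The summed sulfur list read 615.3, 794.6 and 759.9 FPKM in asf1ab and 683.6, 544.3 and 1092 FPKM in hira, so hira replicate 3 alone lies above all asf1ab libraries. Without hira replicate 3 the median was -0.23, with 7 positive and 8 negative differences, and without asf1ab replicate 1 it was -0.24.

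Rapid stress genes formed the group with most calls. These genes, mostly ERF, WRKY and zinc finger transcription factors, rise within minutes of touch, wounding or cold in plants and fall again soon after. Of 25 listed, 22 were tested and 12 were lower in asf1ab, with none higher, against 0.95% of all loci called lower. The difference was negative in 21 of 22, and the median was -1.18. All hira libraries lay above all asf1ab libraries in 15, against 7.99% of all loci. The list was chosen with earlier results of these data in view. The calls numbered 12 without hira replicate 3 and 12 in the fit without hira replicates 1 and 2, and fell to 4 without asf1ab replicate 1, asf1ab replicate 2 or hira replicate 2, and 7 without asf1ab replicate 3 or hira replicate 1.

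ERF6, an ethylene response factor, read 10.7, 13.2 and 10.97 FPKM in asf1ab, 38.5, 43.2 and 38.8 FPKM in hira and 9.44, 7.97 and 26.3 FPKM in WT. The hira libraries lie above all others, and the difference was -1.75 ± 0.110 (adjusted p = 0.00115, limma). ERF5 read 8.76, 10 and 8.17 FPKM in asf1ab, 33.1, 30.6 and 21.9 FPKM in hira and 3.35, 4.65 and 7.65 FPKM in WT (-1.59 ± 0.179, adjusted p = 0.0106). For WRKY33, a regulator of camalexin and defence genes, the values were 25.2, 24.5 and 31.6 FPKM in asf1ab and 59.3, 82.3 and 104 FPKM in hira, with 27.8, 31.6 and 74.8 FPKM in WT (-1.58 ± 0.200, adjusted p = 0.0172). In each of these genes WT replicate 3 is the highest of the WT libraries. SZF1, a zinc finger protein of the salt response, read 23.8, 25.4 and 26.0 FPKM against 64.9, 70.7 and 84.5 FPKM (-1.55 ± 0.110, adjusted p = 0.00214), and CBF2, a cold response activator, 2.58, 2.75 and 2.24 FPKM against 5.97, 12.1 and 8.55 FPKM (-1.48 ± 0.220, adjusted p = 0.0318). ERF5 and WRKY33 lost the call without asf1ab replicate 1, asf1ab replicate 2 or hira replicate 2, and CBF2 without any library but hira replicate 1, while ERF6 and SZF1 kept it.

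The other called members were ZAT6, ZAT10, CAF1B, CAF1A, SZF2, ERF13 and ERF104, from -0.97 to -1.40. The widest gap in the list, not called, was at CML38, a calmodulin-like gene, with 1.2, 2.47 and 2.69 FPKM in asf1ab and 5.45, 8.08 and 35.1 FPKM in hira (-2.11 ± 0.594, adjusted p = 0.179). WRKY40 followed, at 5.04, 4.65 and 5.67 FPKM against 14.8, 19.6 and 48.0 FPKM (-2.09 ± 0.370, adjusted p = 0.0521). Genes that were not called also include ZAT12, at 5.2, 7.99 and 14.9 FPKM in asf1ab and 10.8, 9.38 and 62.8 FPKM in hira, where hira replicate 3 alone stands out, and TCH4, a touch-induced cell wall enzyme, at -0.51 (adjusted p = 0.322). The WT mean was nearer to asf1ab than to hira for 11 of the 12 called genes. Summed over the list, levels were 388, 398 and 410.2 FPKM in asf1ab, 717, 819 and 1126 FPKM in hira and 297, 334 and 741 FPKM in WT. In shade 1 of the 12, CAF1A, was called (-0.53, adjusted p = 0.0318, limma), and 9 of 12 had the same sign. The median of the 12 went from -1.38 in white light to -0.20. Over the 21 members of the whole list tested in shade the median was 0.14, against -1.18 in white light. For ERF6 the difference between the lights was itself called, at 1.996 ± 0.189 (adjusted p = 0.00366), since shaded asf1ab read 7.16, 6.78 and 10.12 FPKM and shaded hira 6.56, 7.36 and 6.47 FPKM. It was not called for the other 11.

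**Figure D4:**
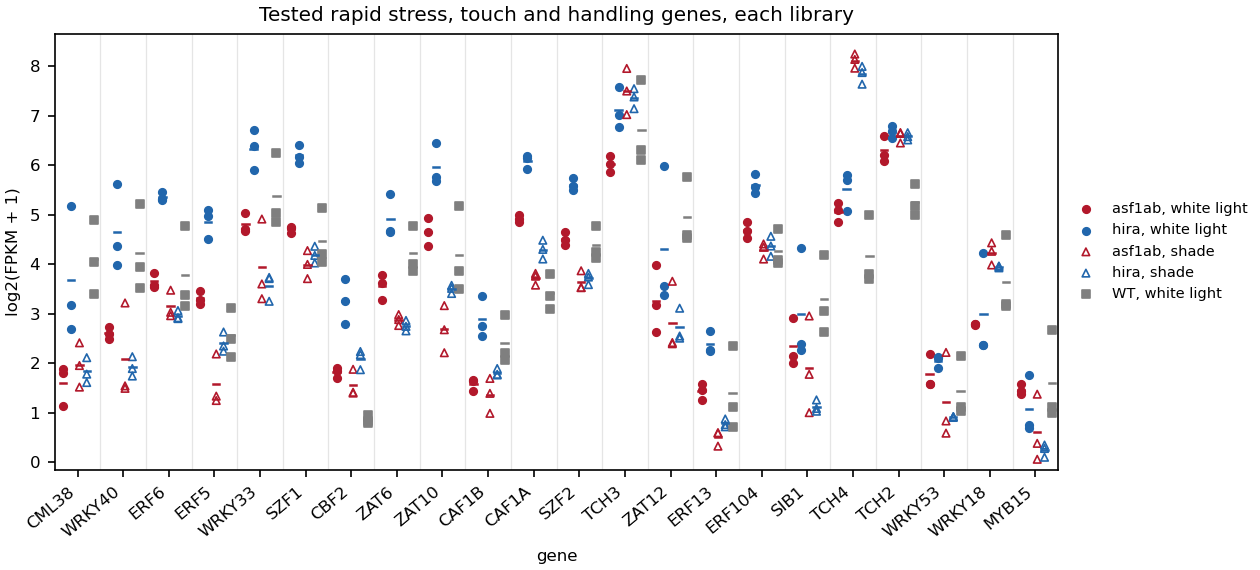
Values of log2(FPKM + 1) (vertical axis) in each library for the 22 tested rapid stress genes (horizontal axis), for asf1ab and hira in white light and in shade and for WT in white light; points are libraries and dashes group means. All white-light hira points lie above those of asf1ab in 15 genes, such as ERF6 at 38.5 to 43.2 FPKM against 10.7 to 13.2 FPKM, and shaded points of the mutants mostly overlap.

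Among jasmonate genes 1 was called, lower in asf1ab, against 0.95% of all loci called lower. Of 22, 17 were tested, and all 17 differences were negative with a median of -0.40. All hira libraries lay above all asf1ab libraries in 7, against 7.99% of all loci. The called gene was MYC2, the master regulator of jasmonate responses, at 10.4, 8.33 and 6.84 FPKM in asf1ab, 21.8, 23.9 and 22.8 FPKM in hira and 7.57, 12.5 and 18.03 FPKM in WT (-1.38 ± 0.148, adjusted p = 0.0096, limma). MYC2 lost the call without asf1ab replicate 2, hira replicate 1 or hira replicate 2. The summed list read 349, 414 and 360.2 FPKM in asf1ab and 479.8, 443 and 756 FPKM in hira, with hira replicate 3 the highest. JAZ1, a repressor of the pathway, shows this, at 9.91, 9.73 and 42.5 FPKM in hira against 7.60, 8.89 and 8.70 FPKM in asf1ab. Without hira replicate 3, 10 of 16 tested members were negative, the median was -0.10 and 2 were called. In shade the median of the list was 0.12. Heat shock genes, of which 0 of 19 tested were called (2 unadjusted, both lower), showed the same library apart, with sums of 101.5, 109.7 and 407 FPKM in hira and 131.5, 127 and 179 FPKM in asf1ab. Their median of -0.32 became 0.19 without hira replicate 3.

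Histone genes were described next, because H3 and H4 are the cargo of the mutated chaperones. Of 17 genes for H3 and H4, all were tested, 15 differences were positive, and asf1ab libraries lay above hira libraries in 9, against 11.8% of all loci. The median was 0.33, from 0.20 without hira replicate 3 to 0.52 without hira replicate 1, and 0.66 without hira replicates 1 and 2 together. Called higher was 1 gene, against 0.52% of all loci. At an unadjusted p below 0.05 (limma) 7 were higher and 1 lower, against 5.97% and 7.35% of all loci. HTR8, a gene for H3.3, read 271, 312 and 284 FPKM in asf1ab, 176, 153 and 167 FPKM in hira and 189, 189.7 and 203 FPKM in WT. The asf1ab libraries lie above both other genotypes, with a difference of 0.75 ± 0.114 (adjusted p = 0.0339, limma) and 0.81 in shade. HTR5 and HTR4, also H3.3 genes, differed by 0.61 ± 0.111 (adjusted p = 0.0543) and 0.33 ± 0.120 (adjusted p = 0.296). HTR8 lost the call without any single library, with adjusted p from 0.0624 to 0.130. In shade the list's median was 0.59 and 7 genes were called higher, in the fit of 12 mutant libraries where white light gave 4. AT1G13370, a histone H3 family gene outside the list and chosen after its values were seen, read 2.83, 3.53 and 3.59 FPKM against 0.63, 0.38 and 0.36 FPKM (1.54 ± 0.172, adjusted p = 0.0106).

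Other histone chaperone genes were not called in the main fit. Of 19 genes for H3-H4 chaperones and their subunits, ASF1B was the 1 called, 11 differences were positive and the median was 0.03. Without adjustment 5 had a p below 0.05 (limma), 3 higher and 2 lower, against 13.3% of all loci. With all 24 libraries in the fit 2 were called higher and 2 lower. DNA replication genes had 0 of 15 called (0 unadjusted) and a median of -0.07 that was positive without asf1ab replicate 3 (0.04) or hira replicate 1 (0.11). Mitosis and cytokinesis genes had 0 of 18 called (1 unadjusted, lower), 17 negative differences and a median of -0.30. Their sums were 136.9, 148.9 and 104.3 FPKM in asf1ab and 210.5, 164.7 and 113.2 FPKM in hira, so hira replicates 1 and 2 are the high libraries. The median was -0.08 without hira replicate 1 and -0.53 without hira replicate 3, and without hira replicates 1 and 2 together it was 0.15, with 15 positive differences. AUR2, an aurora kinase, differed by -0.56 ± 0.143 (adjusted p = 0.146). For DNA damage response genes, 0 of 16 tested were called (2 unadjusted, 1 each way), with a median of 0.08. GMI1, induced by DNA breaks, read 3.14, 2.75 and 3.85 FPKM against 1.19, 1.05 and 1.75 FPKM (0.84 ± 0.177, adjusted p = 0.0875, limma). GMI1 was called in shade (0.87, adjusted p = 0.0133), in the fit of 12 mutant libraries where white light gave 1 called member of the list.

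Among silenced loci and DNA methylation genes, 15 of 17 were tested, with QQS higher and MRD1 and ROS1 lower. Over all loci 0.52% were called higher and 0.95% lower. ROS1, a demethylase that removes 5-methylcytosine and whose own transcript follows methylation activity, read 2.84, 2.81 and 2.78 FPKM in asf1ab and 6.62, 5.32 and 4.91 FPKM in hira (-0.83 ± 0.140, adjusted p = 0.0468, limma). It lost the call without any 1 of 5 libraries, all but hira replicate 3. Flowering genes had 0 of 14 called (4 unadjusted, 1 higher and 3 lower). FLC, the flowering repressor, read 3.68, 3.5 and 3.43 FPKM in asf1ab, 5.38, 8.67 and 7.58 FPKM in hira and 26.4, 19.9 and 19.6 FPKM in WT. Both mutants lie below WT and asf1ab below hira, by -0.87 ± 0.159 (adjusted p = 0.0550), a difference that was called without hira replicate 1 (adjusted p = 0.0493).

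Growth, light and organelle genes gave few calls. By limma, 0 were called of 29 nuclear photosynthesis genes (2 unadjusted, both higher), 20 clock genes (3 unadjusted), 26 shade and growth genes (3 unadjusted), 20 cell wall loosening genes (4 unadjusted), 17 anthocyanin genes (3 unadjusted) and 14 senescence genes (2 unadjusted), where 13.3% of all loci passed without adjustment. Their medians lay between -0.26 for cell wall loosening and 0.22 for senescence. Without hira replicates 1 and 2 together the photosynthesis median went from -0.12 to 0.34 and the senescence median from 0.22 to -0.23. RBCS2B, a small subunit gene of Rubisco, read 9164, 8525 and 6167 FPKM in asf1ab and 4353, 3549 and 2898 FPKM in hira (1.09 ± 0.245, adjusted p = 0.105). Cytosolic ribosomal protein genes had positive differences in 259 of 304 tested, with a median of 0.17, or 0.05 without asf1ab replicate 2 and 0.04 without hira replicate 2, and 1 called: AT3G28500, for an acidic protein of the large subunit, at 4.64, 7.83 and 7.37 FPKM against 0.92, 1.51 and 0.81 FPKM (1.83 ± 0.218, adjusted p = 0.0143), a call lost without asf1ab replicate 2, asf1ab replicate 3 or hira replicate 1. Plastid-encoded loci had negative differences in 71 of 75 tested with a median of -0.59, or -0.04 without hira replicates 1 and 2 together, and mitochondrial loci in 19 of 25 with a median of -0.42. The plastid and mitochondrial shares of summed FPKM given above are sums over these same classes of loci, so they are not a separate measure.

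Shaded seedlings, whose libraries share none with white light, give a second measure of the same genotypes. There 603 of 18905 loci differed between asf1ab and hira (3.19%), 261 higher (1.38%) and 342 lower (1.81%) in asf1ab. Shade was tested in a fit of the 12 mutant libraries, in which white light gave 806 calls (287 higher, 519 lower), so 603 is not to be set against the 277 from 6 libraries. Of the 98 loci higher in white light, 96 were tested in shade, 94 had the same sign and 48 were called the same way. Of the 179 lower ones, 178 were tested, 150 had the same sign and 92 were called the same way. None was called the opposite way. Median differences were 0.91 in shade for the higher loci and -0.68 for the lower. The 6 called seed storage genes were all called again in shade, with a median of 4.33 in white light and 4.66 in shade; shaded SESA5 read 124, 61.4 and 60.9 FPKM in asf1ab and 0.55, 0.22 and 0 FPKM in hira. BHLH100 and CYP71A12 were not called in shade, at 0.70 and 0.83.

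A test of the difference between the lights, over 18905 loci, called 4 loci (0.0212%), while 1594 (8.43%) had an unadjusted p below 0.05. The 4 are AT2G22880, AT5G19595, ERF6 and AT3G56880, all negative in white light. In shade AT2G22880 and AT5G19595 lay at 0, ERF6 at 0.24 and AT3G56880 at 0.46, none of them called there. AT2G22880 codes for a VQ motif protein, a class that binds WRKY factors. It read 0.12, 0 and 0 FPKM in white-light asf1ab and 10.8, 17.1 and 10.05 FPKM in white-light hira (-3.70 ± 0.212, adjusted p = 0.000967, limma), and 0 in all 6 shaded mutant libraries. WT read 0, 0 and 9.07 FPKM, again with replicate 3 apart. AT3G56880, another VQ motif gene, read 35.2, 33.9 and 27.7 FPKM in asf1ab and 51.8, 53.9 and 62.7 FPKM in hira in white light (-0.83 ± 0.124, adjusted p = 0.0321), against 32.3, 30.4 and 35.0 FPKM and 22.2, 23.4 and 26.8 FPKM in shade. Without replicate 1 of all 4 groups 0 loci were called for this difference, without replicate 2 the calls were 2 and without replicate 3 they were 19.

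**Figure D5:**
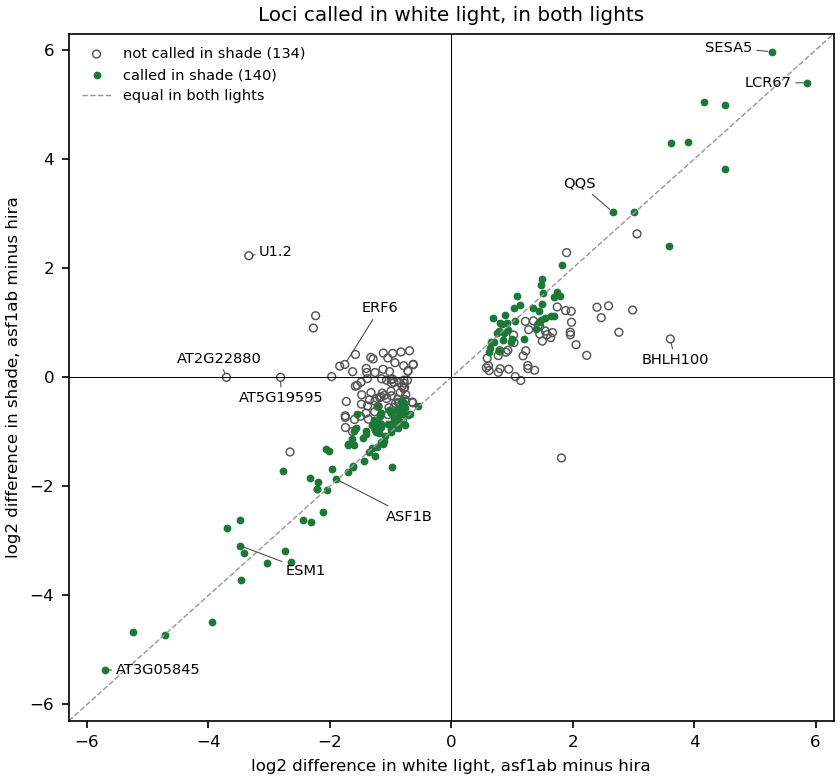
Log2 difference between asf1ab and hira in shade (vertical axis) against that in white light (horizontal axis) for the 274 called loci that were tested in both lights, 140 of them called in shade and 134 not. Loci such as SESA5 and AT3G05845 lie far out in the same direction in both lights, while AT2G22880 and AT5G19595 lie at 0 on the shade axis and ERF6 slightly above it.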

How the data were processed

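RNA was sequenced from whole seedlings in 24 libraries, of which the 3 white-light asf1ab and 3 white-light hira libraries form the comparison and the 6 shaded libraries of the same mutants its second measure. The deposited values are FPKM of the authors, 1 table of 33020 loci with 2 decimals. Per the submitters' processing notes, FastQC, cutadapt, STAR, HTSeq and DESeq2 were used with the TAIR10 genome; versions, strand setting, the derivation of FPKM and the making of the 187 assembled loci are, in the sources used here, not given. FPKM corrects for depth and length, so a transcript class with a large share lowers all others; values were therefore scaled by the median of ratios.

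Groups came from the sample labels. Loci with a mean FPKM of at least 1 were tested in R 4.3.3 with limma 3.58.1 (variance trend, pseudocount 1, Benjamini-Hochberg over all loci tested, calls below 0.05), white light on its 6 libraries and shade and the difference between lights on 12. Shares of summed FPKM were compared by exact permutation. The fits were also tested on simulated data. Same-numbered asf1ab and hira libraries did not deviate together in all pairs, so no pairing was used. Gene names and order came from TAIR10.1, in which 32548 loci were found, while summaries used pandas 2.3.3 and numpy 2.4.6 under Python 3.11.15, and plots matplotlib 3.10.9.

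The comparison, its 20 gene lists and 5 marker lists, with ribosomal protein, plastid and mitochondrial loci, were chosen with earlier results of these data known, and an iron deficiency list was added after the values were seen. Named were ASF1A, ASF1B and HIRA, the 14 largest rises and falls among called nuclear loci with separate groups, a mean of at least 2 FPKM in the higher group and some value above 0 in the lower, the 6 highest loci listed at 0 in 1 group, and from each list up to 5 called members or else the 2 with the largest change. Other genes in the text were named after their values were seen. Alternatives were other scalings, fits, pseudocounts, filters, a replicate block and each library left out. Sequences of the loci were not used here.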

Additional observations from a re-analysis of the deposited data

Results flagged for a closer look

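At 3 of the named loci the difference between asf1ab and hira itself differed between shade and white light, by a test of that difference in limma over 18905 loci. For AT2G22880, a VQ motif gene, shade minus white light was 3.76 ± 0.273 (adjusted p = 0.000568), with 10.8, 17.1 and 10.05 FPKM in white-light hira and 0 in all shaded libraries of both mutants. Its neighbour AT2G22870 overlaps it on the opposite strand. For AT5G19595, of unknown function, the value was 2.86 ± 0.278 (adjusted p = 0.00366), with 7.17, 6.69 and 4.27 FPKM in white-light hira and 0 in the other mutant libraries of both lights. For the ethylene response factor ERF6 it was 1.996 ± 0.189 (adjusted p = 0.00366), with white-light hira at 38.5 to 43.2 FPKM and shaded hira at 6.47 to 7.36 FPKM. Single libraries far from their group were not searched for, because each group has 3.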

How the results depend on the processing

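None of the 277 white-light calls changed sign under any alternative, which groups of libraries without overlap largely fix in advance. Medians of lists were less stable: of 29 lists, 8 had a median that changed sign without some single library and 8 without hira replicates 1 and 2, 11 in all. They include DNA replication (-0.07, to 0.11 without hira replicate 1), heat shock (-0.32, to 0.19 without hira replicate 3), photosynthesis (-0.12, to 0.34 without hira replicates 1 and 2), senescence (0.22 to -0.23) and mitosis (-0.30 to 0.15) likewise. The salicylic acid list's median of 0.31 was -0.02 at a mean FPKM of at least 5. The count was 1218 (453 higher, 765 lower) with all 24 libraries in the fit, 806 (287 and 519) with the 12 mutant libraries, 155 (45 and 110) at a mean FPKM of at least 5, and 913 (260 and 653) without hira replicates 1 and 2, an alternative chosen after seeing the data. The lower calls were 117 without a filter and 116 at 1 log2 unit or more. Without scaling the split was 98 to 140. Leaving out each library gave 66 to 292 calls (21 to 114 higher, 45 to 178 lower). Leaving out 1 replicate number in all 4 mutant groups at once gave 51 to 252 in shade (24 to 82 and 27 to 170) and 0 to 19 for the difference between lights (0 to 8 and 0 to 11). With more libraries the fit has more degrees of freedom; for the other changes the cause was not tested. Organelle and ribosomal loci left out, also added after seeing the data, gave 104 and 189.

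Same-numbered libraries correlated at 0.107, 0.00942 and 0.32 in their deviations, and crossed numbers at -0.251 to 0.167. These few values cannot decide whether the numbers pair the samples. With the replicate block 70 loci were higher and 141 lower, 164 of them shared with the 277, and for the difference between lights 1 was lower. Among named genes over all alternatives, 1319 values kept their side of the threshold, 171 lost the call and 38 gained it. In the main white-light fit the smallest called differences were 0.58 and -0.55 log2 units. Smaller differences could be missed there, and these values are not a limit for the other fits.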

Other observations

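The called genes outside the lists named here were picked after their values were seen, so they describe single genes and no group. The chitinase genes CHI (AT2G43570) and AT2G43620 differed by 1.98 ± 0.327 and 2.06 ± 0.209 (adjusted p = 0.0441 and 0.00814, limma), the defensin gene PDF1.4 by 1.98 ± 0.244 (adjusted p = 0.016), the transcription factor gene NAC042 by 1.46 ± 0.209 (adjusted p = 0.0281) and the glutathione transferase gene GSTF3 by 1.46 ± 0.192 (adjusted p = 0.0208). AT2G43620 read 7.89, 4.54 and 6.61 FPKM in asf1ab, 0.87, 0.54 and 0.70 FPKM in hira, and 1.4, 1.8 and 16.9 FPKM in WT, again with WT replicate 3 apart. None of these 5 was called in shade. Other genes of resistance-type proteins were lower in asf1ab: AT1G66090, a TIR-NBS gene, read 3.02, 4.04 and 2.61 FPKM in asf1ab and 12.8, 14.97 and 17.3 FPKM in hira (-1.97 ± 0.152, adjusted p = 0.00295), and RLP19, a receptor-like protein gene, differed by -1.70 ± 0.188 (adjusted p = 0.0106). HAK5, a potassium transporter induced by potassium shortage, was higher by 1.53 ± 0.167 (adjusted p = 0.0102), at 2.62, 2.57 and 2.70 FPKM against 0.26, 0.15 and 0.30 FPKM.

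An iron deficiency list of 18 genes was written after BHLH100 and bHLH39 were seen and so is given without a test of the list. It had 14 measured members with a median log2 difference of 0.76. Of these, 3 were called higher, against 0.52% of all loci. BHLH100 and bHLH39, which prompted the list, are among the 3, so the count is not independent evidence. BHLH101, a relative of BHLH100, read 8.28, 5.86 and 5.65 FPKM in asf1ab and 1.12, 1.14 and 0.73 FPKM in hira (1.88 ± 0.185, adjusted p = 0.00736, limma). BHLH38 read 27.6, 24.5 and 4.27 FPKM against 0.62, 0.86 and 0.29 FPKM and was not called (3.28 ± 0.614, adjusted p = 0.0603). OPT3, which loads iron into the phloem, differed by 1.00 ± 0.184 (adjusted p = 0.0569), while FIT and IRT1, the root regulator and uptake transporter, differed by -0.37 and -0.15. Summed levels were 517.2, 592 and 491.7 FPKM in asf1ab and 394.3, 335.7 and 885.6 FPKM in hira, so hira replicate 3 lies above all asf1ab libraries. Leaving out a single library gave 1 to 4 called members, all higher, and without hira replicates 1 and 2 together 7 were higher and 3 lower.

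Also picked after their values were seen are 4 genes lower in asf1ab. ORA47, a jasmonate-linked ERF gene, read 2.76, 1.47 and 1.63 FPKM in asf1ab and 9.47, 10.2 and 7.78 FPKM in hira (-1.84 ± 0.199, adjusted p = 0.0102, limma), with 0.20 in shade. ACS6, an ethylene synthesis enzyme, differed by -1.38 ± 0.209 (adjusted p = 0.0342) and ERF11 by -1.39 ± 0.204 (adjusted p = 0.0308). DIC2, a mitochondrial dicarboxylate carrier, differed by -1.55 ± 0.129 (adjusted p = 0.00396) and was also lower in shade, by -0.68 (adjusted p = 0.00532).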
